A study of Mus musculus with 12 samples.

Results

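The 9 genes described here encode the Fc gamma receptors of the mouse macrophage and a set of paired immunoglobulin-like receptors: Fcgr1, Fcgr2b, Fcgr3, Fcgr4, Fcer1g, Pilra, Pilrb1, Pilrb2 and Sirpa. They were taken by symbol from a table of 14098 genes, and all 9 were present. Of these, 6 are counted as activating (Fcgr1, Fcgr3, Fcgr4, Fcer1g, Pilrb1 and Pilrb2) and 3 as inhibitory (Fcgr2b, Pilra and Sirpa). RNA was sequenced from bone marrow-derived macrophages (BMDM), which were grown from C57Bl/6 mice of both sexes aged 8 to 10 weeks in L929 conditioned medium and then encapsulated in collagen-hyaluronic acid gels. The 6 groups held 2 libraries each and crossed genotype with matrix: wild type (WT) or Camkk2-/- (KO) cells in soft gel, in soft gel with IL-4, or in gel stiffened by UV light with a photoinitiator 24 h after encapsulation. By the study's recipe the stiff gel also held a higher concentration of collagen than the soft gel. All cells were released with collagenase IV. CaMKK2 is a kinase activated by calcium and calmodulin, and its gene was disrupted in the KO animals. Which exons the Camkk2-/- allele lacks is not given in the sources used here.

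Fc gamma receptors bind the constant part of IgG. Fcgr1 encodes the high-affinity receptor FcγRI, Fcgr3 and Fcgr4 encode FcγRIII and FcγRIV, and all of them need the common gamma chain, the product of Fcer1g, whose ITAM motif recruits the kinase Syk and starts phagocytosis and cytokine release. Fcgr2b encodes FcγRIIB, the inhibitory member, whose ITIM motif recruits the phosphatase SHIP1. The paired receptors follow the same plan: PILRα, the product of Pilra, carries ITIMs, while the PILRβ proteins of Pilrb1 and Pilrb2 signal through the ITAM adaptor DAP12. SIRPα, the product of Sirpa, binds CD47 on other cells and restrains phagocytosis through the phosphatases SHP-1 and SHP-2. In macrophages the weight of activating against inhibitory receptors sets the threshold for the response to immune complexes, and IL-4 is known as a cytokine that shifts this weight.

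The genes lie in 2 tight clusters and at 2 single sites (GRCm38, GENCODE vM21). Fcgr2b, Fcgr4, Fcgr3 and Fcer1g share 275.7 kb of chromosome 1 (170958617 to 171234365), and Pilra, Pilrb1 and Pilrb2 share 49.86 kb of chromosome 5 (137821952 to 137871815), the chromosome that also carries Camkk2 (122731170 to 122779409). Fcgr1 lies on chromosome 3 (96282909 to 96293969) and Sirpa on chromosome 2 (129592835 to 129632228). Promoter sequences of 300 bases, from 250 before to 50 after the transcript start, were found for 8 of the 9 genes in RefSeq (GRCm38.p6), all but Sirpa. Those of the 3 Pilr genes and of Fcgr1 are shown because their RNA was low in the same libraries, and that of Fcgr2b because its RNA was high in those libraries. They are written 5′ to 3′ along the gene, with capitals marking any match to the searched motifs.
Fcgr1, chr3:96293920-96294219, minus strand: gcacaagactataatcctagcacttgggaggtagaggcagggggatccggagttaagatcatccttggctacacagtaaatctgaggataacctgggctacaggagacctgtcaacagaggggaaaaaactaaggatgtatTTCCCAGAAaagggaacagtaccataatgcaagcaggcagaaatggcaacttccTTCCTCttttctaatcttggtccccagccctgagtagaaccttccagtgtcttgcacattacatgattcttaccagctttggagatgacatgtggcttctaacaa
Fcgr2b, chr1:170976022-170976321, minus strand: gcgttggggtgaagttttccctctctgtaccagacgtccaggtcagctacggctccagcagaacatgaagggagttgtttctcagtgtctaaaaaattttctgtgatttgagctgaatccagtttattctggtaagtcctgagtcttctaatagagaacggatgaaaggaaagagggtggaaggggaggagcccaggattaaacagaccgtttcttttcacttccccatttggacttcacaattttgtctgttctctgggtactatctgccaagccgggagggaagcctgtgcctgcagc
Pilra, chr5:137836229-137836528, minus strand: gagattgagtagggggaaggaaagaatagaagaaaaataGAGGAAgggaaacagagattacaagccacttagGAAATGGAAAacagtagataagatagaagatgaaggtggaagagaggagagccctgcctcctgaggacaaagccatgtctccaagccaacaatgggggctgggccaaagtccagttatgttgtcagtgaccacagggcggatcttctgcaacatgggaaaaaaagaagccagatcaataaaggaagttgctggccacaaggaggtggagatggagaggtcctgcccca
Pilrb1, chr5:137858000-137858299, minus strand: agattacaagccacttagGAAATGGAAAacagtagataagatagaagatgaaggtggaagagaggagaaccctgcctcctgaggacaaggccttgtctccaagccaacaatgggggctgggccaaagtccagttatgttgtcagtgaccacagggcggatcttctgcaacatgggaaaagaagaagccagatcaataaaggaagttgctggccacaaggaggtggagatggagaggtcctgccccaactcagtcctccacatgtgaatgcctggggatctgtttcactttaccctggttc
Pilrb2, chr5:137871709-137872008, minus strand: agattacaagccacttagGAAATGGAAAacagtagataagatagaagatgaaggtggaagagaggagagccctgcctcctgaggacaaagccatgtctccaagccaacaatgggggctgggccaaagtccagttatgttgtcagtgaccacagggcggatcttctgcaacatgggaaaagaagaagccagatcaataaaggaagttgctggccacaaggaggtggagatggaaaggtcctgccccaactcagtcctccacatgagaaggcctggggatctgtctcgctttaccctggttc

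The 3 Pilr promoters are near copies of each other. Pilrb1 and Pilrb2 were identical at 292 of 300 bases, and Pilra matched Pilrb1 at 242 and Pilrb2 at 244 of 246 bases once shifted by 54 bases. Searched on both strands were the STAT palindrome with a spacer of 4 bases (the spacing known for STAT6), the same palindrome with a spacer of 3 bases (TTCNNNGAA, known for other STAT proteins), the tandem GAAA repeat known for interferon regulatory factors with 2 bases between the repeats, and GAGGAA, known for PU.1. The wider STAT spacing, which 6.95% of 32851 promoters of this length hold, was in none of the 8. The narrower one is held by 8.30% of promoters and was found in that of Fcgr1, as TTCCCAGAA 109 bases before the start. The tandem repeat is held by 3.44% of promoters and was found in 4 of the 8, as GAAATGGAAA in the 3 Pilr genes and as GAAAAGGAAA in Fcgr4. GAGGAA, in 28.3% of promoters, was found for Fcgr1, Fcgr3, Fcgr4 and Pilra, and no 2 of these matches overlapped. A match describes the letters only.

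Values are TPM, the number of transcripts of a gene in each 1000000 transcripts of the library, which are scaled per transcript length and so can be compared between genes. Averaged over the 12 libraries, Fcer1g was at 2391 TPM, Fcgr3 at 934, Sirpa at 888, Fcgr2b at 339, Fcgr4 at 85.2, Fcgr1 at 71.6, Pilra at 10.1, Pilrb1 at 8.18 and Pilrb2 at 5.24 TPM. The order ran from rank 62 to rank 8490 of the 14098 genes, so the Pilr genes are weakly expressed members. Their values need care for a further reason: 48.6% of the 31-base words in Pilrb1 transcripts and 46.8% of those in Pilrb2 occur in another gene, most often the other Pilrb. The split between Pilrb1 and Pilrb2 is therefore uncertain, and their sum is given too. The same share was 14.2% for Pilra, 13.4% for Fcgr3 (all with Fcgr2b), 5.78% for Fcgr2b, 1.31% for Fcgr4 and at most 0.0392% for the others.

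Several libraries need naming before the results, and group names below are those of the labels. The libraries labelled WT soft held 44.2 and 11.7 TPM of Camkk2, with 46.6 and 11.5 in KO soft, 30.5 and 29.8 in WT soft+IL-4, 11.5 and 8.54 in KO soft+IL-4, 23.3 and 23.7 in WT stiff, and 37.7 and 10.0 in KO stiff. The level thus went against the label in 3 libraries, KO soft 1, KO stiff 1 and WT soft 2, and genotype comparisons that use them carry that doubt. The library WT stiff 1 stood apart, with a median absolute log2 difference over genes of 0.292 to 0.333 from each of the other 11. WT stiff 2 differed from the 4 soft+IL-4 libraries by 0.0774 to 0.126, as those did among themselves (0.0923 to 0.155), and from the soft libraries by 0.240 to 0.249. Genes listed at 0 made up 5.90% to 13.4% of a library. The depth of each library is not known here, since TPM keep no read totals. All 8 macrophage markers were present, but their summed TPM moved with the groups, from 51490 to 58020 in soft gel to 23780 to 25730 with IL-4, 23970 to 24890 in WT stiff and 46020 to 48670 in KO stiff gel. Neutrophil markers summed to at most 26.6 TPM and eosinophil markers to 4.81 to 9.05 TPM. Those of NK or T cells, mast cells or basophils, B cells, fibroblasts and erythroid cells summed to at most 3.38 TPM in any library. Not all listed markers were present: 8 of 10 were for neutrophils, 3 of 4 for eosinophils and 5 of 6 for B cells. For NK or T cells 4 of 7 were present and for erythroid cells 1 of 5, so these sums cover part of each list. The dendritic cell markers summed to 4.95 to 11.1 TPM in soft gel, 10.9 to 14.2 with IL-4, 13.7 to 21.8 in WT stiff and 8.36 to 9.05 in KO stiff gel. Of these, Ccr7 (2.24 to 19.1 TPM) rose with IL-4 by 1.13 (adjusted p = 0.00944 from limma) and in WT stiff gel by 1.99 log2 units (adjusted p = 0.00670). Cd209a was at no more than 2.56 TPM and Siglech at no more than 2.08 TPM in any library. Flt3, Zbtb46, Xcr1 and Clec9a were at no more than 1.53 TPM. The part of these markers in the results was not tested. In these bulk samples fewer cells of a type and less RNA per cell cannot be told apart.

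**Figure D1:**
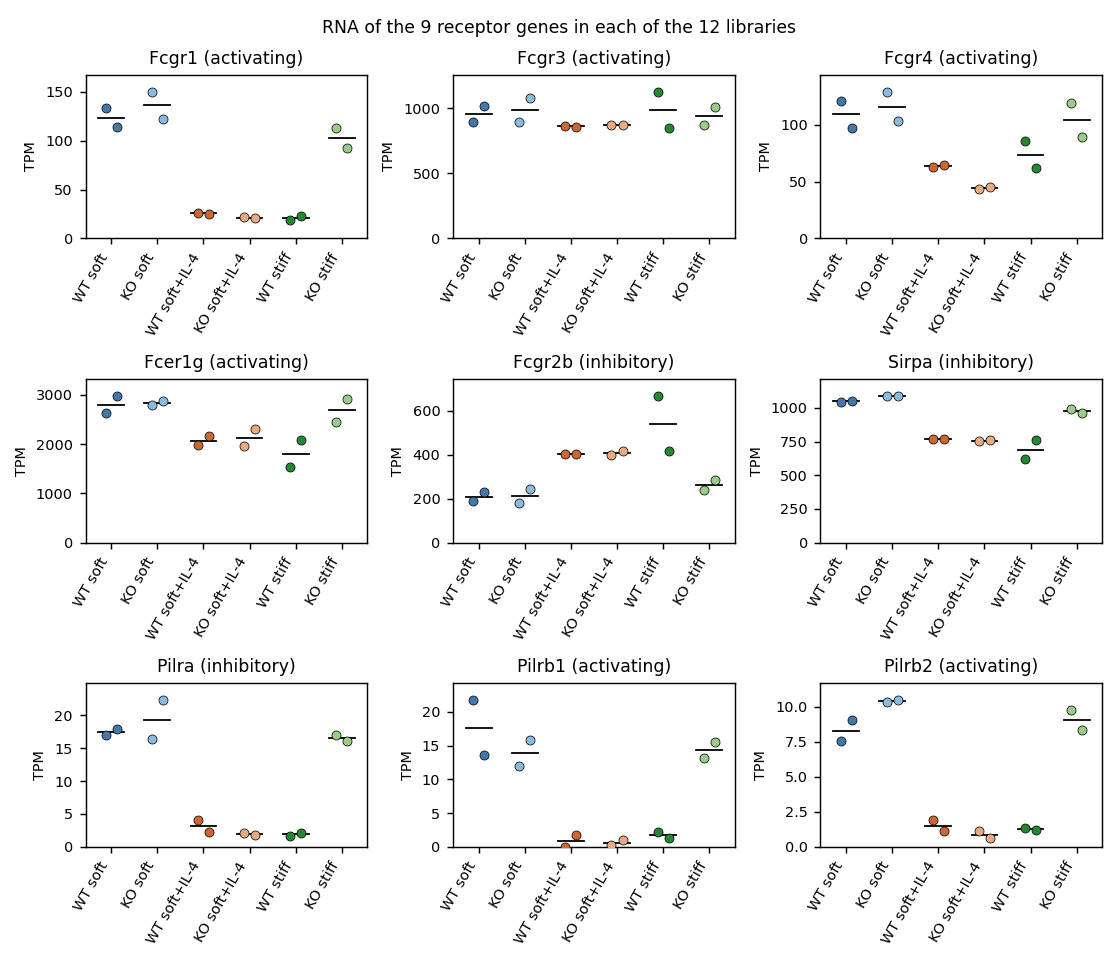
TPM of the 9 receptor genes (y axis, 1 panel per gene, starting at 0) in the 12 libraries (points, 2 per group on the x axis), with horizontal lines at the group means. Fcgr1, Pilra, Pilrb1 and Pilrb2 are low in the soft+IL-4 and WT stiff libraries and high in the soft and KO stiff libraries, and Fcgr2b shows the opposite order.

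Of the activating Fc gamma receptors, the high-affinity receptor gene Fcgr1 varied most. It was at 133 and 114 TPM in WT soft, 150 and 122 in KO soft, 26.0 and 25.1 in WT soft+IL-4, 22.1 and 20.4 in KO soft+IL-4, 18.7 and 22.6 in WT stiff, and 113 and 92.1 TPM in KO stiff. The 6 soft and KO stiff libraries lay above all 6 others, with no overlap. How many of all genes split the libraries in this way was not counted, here or for the receptor genes below. Over all genes tested, the soft and KO stiff libraries also lay apart from the soft+IL-4 libraries. The median absolute log2 difference was 0.185 to 0.279 between these sets and 0.0789 to 0.17 among the soft and KO stiff libraries. With IL-4 the mean of both genotypes fell from 129.8 to 23.4 TPM, a ratio of 5.55, and by 2.42 on the log2(TPM + 1) scale (SE 0.104; limma, Benjamini-Hochberg adjusted p = 1.36e-06 over the 11194 genes tested). The gene also fell in WT stiff against WT soft gel, to a log2 difference of -2.53 (SE 0.146, adjusted p = 3.45e-05). In KO cells the difference between stiff and soft gel was -0.41 (95% CI -0.74 to -0.08, adjusted p = 1), with an unadjusted p of 0.0210 in limma's fit.

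Fcgr4, which encodes a receptor for IgG2 subclasses, followed Fcgr1 under IL-4 at a smaller size. Its level was 121 and 97.1 TPM in WT soft, 129 and 103 in KO soft, 62.5 and 64.9 in WT soft+IL-4, 43.2 and 45.3 in KO soft+IL-4, 86.0 and 61.5 in WT stiff, and 119 and 89.3 TPM in KO stiff. All 4 soft+IL-4 libraries were below all 4 soft libraries, while WT stiff 1 came close to the lowest soft value. With IL-4 the gene fell by 1.06 log2 units (SE 0.137, adjusted p = 0.000621 from limma), and without WT soft 1 or KO soft 1 the difference was -0.98 in each fit, under the 2-fold limit. By genotype the fall was 1.36 in KO cells (adjusted p = 0.00243), and the difference was -0.76 in WT cells (adjusted p = 0.0367), which did not reach the 2-fold limit. Fcgr3, the low-affinity receptor with the highest RNA level of the 3, stayed between 847 and 1125 TPM in all 12 libraries. The soft libraries (893 to 1078 TPM) lay above the soft+IL-4 libraries (859.8 to 873 TPM), while the WT stiff libraries held both the lowest and the highest value. Its log2 difference with IL-4 was -0.16 (95% CI -0.40 to 0.08, adjusted p = 0.327), and in WT stiff against WT soft gel it was 0.03 (95% CI -0.30 to 0.37, adjusted p = 0.927). Fcer1g, the shared signalling chain, was at 2632 to 2972 TPM in the 4 soft libraries and at 1966 to 2300 TPM in the 4 soft+IL-4 libraries, with no overlap. Its log2 difference was -0.43 (SE 0.115, adjusted p = 0.0259), under the 2-fold limit. WT stiff 1, the library that stood apart, held the lowest Fcer1g value (1529 TPM) and the highest Fcgr3 value (1125 TPM).

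The inhibitory receptor gene Fcgr2b went the other way. It was at 190 and 228 TPM in WT soft, 181 and 244 in KO soft, 401 and 404 in WT soft+IL-4, 397 and 417 in KO soft+IL-4, 665 and 415 in WT stiff, and 240.1 and 284 TPM in KO stiff. The soft+IL-4 and WT stiff libraries all lay above the soft and KO stiff libraries. In WT stiff against WT soft gel Fcgr2b rose by 1.33 log2 units (SE 0.216, adjusted p = 0.00459 from limma), and without WT stiff 1 the difference was 0.99, which no longer reached the 2-fold limit. With IL-4 the mean went from 210.7 to 404.8 TPM, a ratio of 1.92 and a log2 difference of 0.95 (SE 0.153, adjusted p = 0.00200), just under the limit. The values were the same size in each genotype, 0.95 in WT and 0.95 in KO cells, and the difference between them was 0.00 (95% CI -0.69 to 0.69).

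Because Fcgr1 and Fcgr2b moved apart, the ratio of activating to inhibitory RNA was computed in each library. The summed TPM of Fcgr1, Fcgr3 and Fcgr4 over Fcgr2b was 6.08 and 5.38 in WT soft, 6.48 and 5.34 in KO soft, 2.38 and 2.35 in WT soft+IL-4, 2.36 and 2.25 in KO soft+IL-4, 1.85 and 2.24 in WT stiff, and 4.60 and 4.18 in KO stiff. The soft range (5.34 to 6.48) and the soft+IL-4 range (2.25 to 2.38) were apart. WT stiff 2 (2.24) lay just below the IL-4 range, and WT stiff 1, the library that stood apart, lay further below it (1.85). KO stiff lay between the ranges, nearer to soft. On the log2 scale the ratio differed by -1.31 with IL-4, by -1.49 in WT stiff and by -0.42 in KO stiff gel, each against soft gel. The SD between replicates of this log2 ratio, pooled over all groups, was 0.133. Fcgr3 carried most of the activating RNA, and without Fcgr1 in the ratio the IL-4 difference was -1.18. The ratio of Fcgr1 alone to Fcgr2b spanned more, from 0.499 to 0.828 in soft gel, 0.0489 to 0.0648 with IL-4, 0.0282 and 0.0544 in WT stiff and 0.470 and 0.324 in KO stiff. The sum of the 4 Fc gamma receptor genes stayed at 1333 to 1547 TPM outside WT stiff 1 (1895 TPM), while the share of Fcgr2b in it was 13.4% to 15.8% in soft gel, 29.6% to 30.7% with IL-4, 35.1% and 30.8% in WT stiff and 17.8% and 19.3% in KO stiff.

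**Figure D2:**
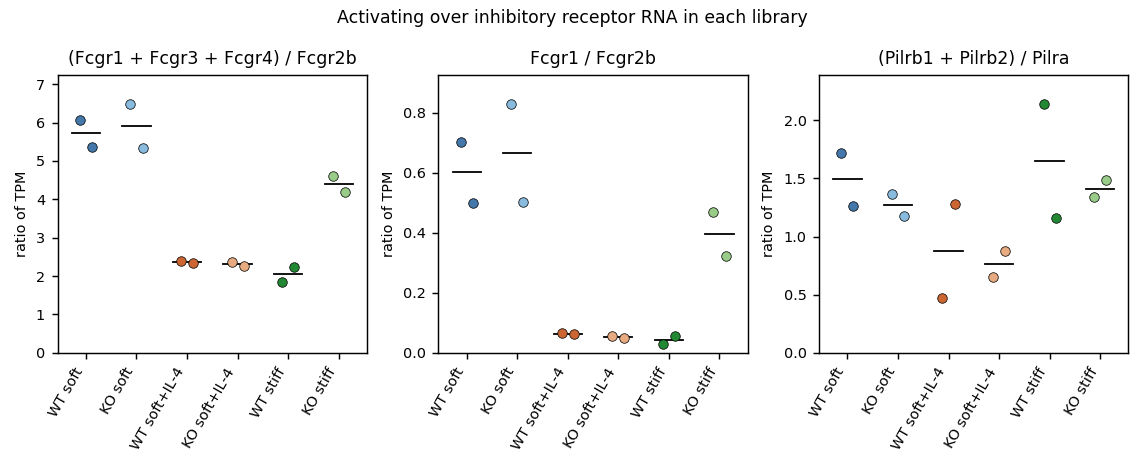
Ratios of summed TPM in each library (y axis, starting at 0) by group (x axis, 2 points per group, lines at the means) for activating Fc gamma receptors over Fcgr2b, Fcgr1 over Fcgr2b, and Pilrb1 plus Pilrb2 over Pilra. The first ratio is 5.34 to 6.48 in soft gel and 2.25 to 2.38 with IL-4, and the Pilr ratio overlaps between these groups.

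The Pilr genes fell on both sides of their pair. Pilra, the inhibitory gene, was at 17.0 and 17.9 TPM in WT soft, 16.4 and 22.3 in KO soft, 4.01 and 2.25 in WT soft+IL-4, 2.07 and 1.81 in KO soft+IL-4, 1.62 and 2.14 in WT stiff, and 17.1 and 16.1 TPM in KO stiff. The 6 soft and KO stiff libraries again lay above all others. The log2 difference of Pilra was -2.48 with IL-4 (SE 0.156, adjusted p = 8.72e-06 from limma) and -2.69 in WT stiff gel (SE 0.221, adjusted p = 0.000115). The sum of the activating genes Pilrb1 and Pilrb2, which does not depend on how reads were split between them, was 29.3 and 22.7 TPM in WT soft, 22.3 and 26.3 in KO soft, 1.88 and 2.89 in WT soft+IL-4, 1.35 and 1.59 in KO soft+IL-4, 3.45 and 2.48 in WT stiff, and 22.9 and 23.9 TPM in KO stiff. These sums formed the same high and low sets of libraries as Pilra. Taken singly, Pilrb1 fell by 3.35 with IL-4 (SE 0.317, adjusted p = 9.92e-05) and Pilrb2 by 2.27 (SE 0.148, adjusted p = 1.07e-05). Pilrb1 was listed at 0 in WT soft+IL-4 1 and at 0.220 to 1.77 TPM in the other IL-4 libraries, so its fitted change depends on the pseudocount. With a pseudocount of 0.1 in place of 1, Pilrb1 was not called in WT stiff against WT soft gel (-3.29, adjusted p = 0.0987 from limma), KO stiff against KO soft+IL-4 (4.62, adjusted p = 0.0536) or KO against WT stiff gel (3.02, adjusted p = 0.186). The ratio of Pilrb1 plus Pilrb2 to Pilra was 1.18 to 1.72 in soft gel and 0.470 to 1.28 with IL-4, and these ranges overlapped.

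Sirpa, the inhibitory receptor for CD47, was lower in the libraries where Fcgr2b was higher. It was at 1046 and 1051 TPM in WT soft, 1086 and 1086 in KO soft, 769 and 768 in WT soft+IL-4, 754 and 759 in KO soft+IL-4, 617 and 759 in WT stiff, and 991 and 965 TPM in KO stiff. The replicates were close except in WT stiff, where WT stiff 1 held the lowest value. The 2 sets of libraries did not overlap. The log2 difference was -0.48 with IL-4 (95% CI -0.64 to -0.32, adjusted p = 0.00126 from limma) and -0.61 in WT stiff gel (95% CI -0.84 to -0.39, adjusted p = 0.00491), both under the 2-fold limit. The 3 inhibitory genes therefore differed in direction among themselves, with Pilra and Sirpa lower and Fcgr2b higher in the same libraries.

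**Figure D3:**
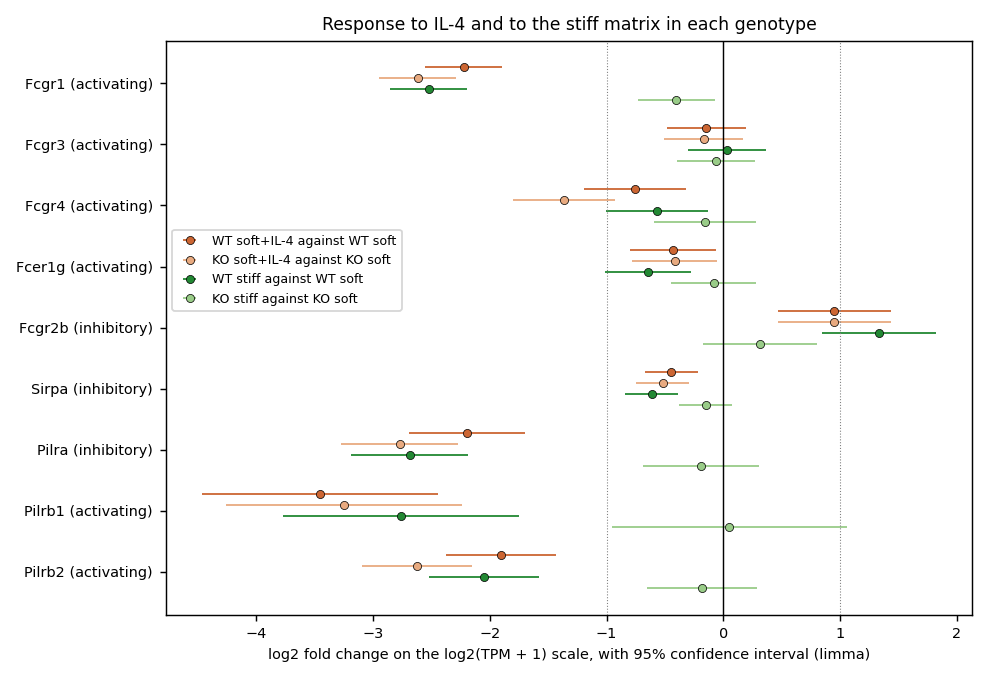
Log2 fold change (x axis, log2(TPM + 1) scale) of each of the 9 genes (y axis) for IL-4 in WT and KO cells and for stiff against soft gel in WT and KO cells, with 95% confidence intervals from limma and dotted lines at the 2-fold limit. In KO stiff against KO soft gel every gene lies within 1 of zero, the farthest being Fcgr1 at -0.41.

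Counted by an adjusted p under 0.05 and at least a 2-fold change, 5 of the 9 genes fell with IL-4 over both genotypes, against 4.35% of all genes called. They were Fcgr1, Fcgr4, Pilra, Pilrb1 and Pilrb2. In WT cells 4 fell (all genes, 3.76%), the same without Fcgr4, and in KO cells 5 fell (all genes, 3.65%). Over both genotypes the median log2 difference of the 6 activating genes was -1.66 and that of the 3 inhibitory genes was -0.48, beside -0.05 over all genes tested. Each side was mixed, so these medians do not describe a side as a whole. The inhibitory median was the value of Sirpa, between Pilra at -2.48 and Fcgr2b at 0.95. The activating values ran from -3.35 for Pilrb1 to -0.16 for Fcgr3. No gene passed for a difference between the genotypes in the IL-4 response (all genes, 0%), and 1, Pilrb2, had an unadjusted p under 0.05 in limma's fit, with 0 calls in every alternative.

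In WT stiff against WT soft gel 4 genes fell and 1 rose, while 3.97% of all genes were called. The falls were in Fcgr1, Pilra, Pilrb1 (log2 difference -2.76, adjusted p = 0.00462 from limma) and Pilrb2 (-2.05, adjusted p = 0.000387), and the rise was in Fcgr2b. Stiff gel and IL-4 were both compared with the same WT soft libraries. Set against WT soft+IL-4 directly, WT stiff differed in 0 of the 9 genes (all genes, 0%), also at an unadjusted p under 0.05, and in every alternative run. The intervals still allowed sizable differences, from -0.63 to 0.03 for Fcgr1, from -0.10 to 0.87 for Fcgr2b, from -0.99 to 0.00 for Pilra and from -0.31 to 1.70 for Pilrb1 on the log2 scale. In KO stiff against KO soft gel 0 of the 9 were called by limma, where 0.0447% of all genes were called, Fcgr1 alone had an unadjusted p under 0.05, and every alternative also gave 0. Taken by replicate number, KO stiff differed from KO soft in Fcgr1 by -0.41 and -0.41 and in Fcgr2b by 0.41 and 0.22. The replicates differed in direction for Fcer1g (-0.19 and 0.02), Pilra (0.06 and -0.44) and Pilrb1 (0.12 and -0.02). With the number as a block in limma's fit, Fcgr1 had an unadjusted p of 0.0172 (adjusted p = 1). Against KO soft+IL-4, the KO stiff libraries were higher in 5 genes (all genes, 1.61%), the same 5 that fell with IL-4. Of these, Fcgr4 was not called without KO soft+IL-4 1 (1.17), KO soft+IL-4 2 (1.24) or KO stiff 1 (1.00), nor Pilrb1 without KO soft+IL-4 1 (2.96).

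Whether the receptors differed between genotypes was asked in each matrix. In soft gel 0 of the 9 differed (all genes, 0%) and 0 had an unadjusted p under 0.05, and with IL-4 0 differed (all genes, 0%) and 1, Fcgr4, had an unadjusted p under 0.05 in limma's fit, and the alternatives gave 0 in both. In stiff gel KO cells had higher Fcgr1 (log2 difference 2.25, SE 0.146, adjusted p = 0.000287), Pilra (2.62, SE 0.221, adjusted p = 0.000631), Pilrb1 (2.51, SE 0.448, adjusted p = 0.0134) and Pilrb2 (2.16, SE 0.210, adjusted p = 0.000901). Fcgr2b was lower in KO cells (log2 difference -1.01, SE 0.216, adjusted p = 0.0301), and 1.98% of all genes were called. The call of Fcgr2b was lost without WT stiff 1 (difference -0.67), KO stiff 1 (-0.88) or KO stiff 2 (-1.13), and that of Pilrb1 without KO stiff 1 (2.62) or KO stiff 2 (2.39). The test of the difference between the genotypes in their stiffness response passed for 3 genes, Fcgr1 (2.12, SE 0.207, adjusted p = 0.00944), Pilra (2.50, SE 0.312, adjusted p = 0.0103) and Pilrb2 (1.86, SE 0.297, adjusted p = 0.0234), with 0.670% of all genes called. For Pilrb1 it was 2.81 (adjusted p = 0.0961) and for Fcgr2b -1.02 (adjusted p = 0.206).

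These genotype results rest on libraries whose Camkk2 level went against their label. Within KO stiff, the library with high Camkk2 (37.7 TPM) held 113 TPM of Fcgr1 and 17.1 TPM of Pilra, and the library with low Camkk2 (10.0 TPM) held 92.1 and 16.1 TPM, so both were high in the 2 genes. Leaving out the 3 libraries in question left 1 library each in WT soft, KO soft and KO stiff, so the spread in these fits came from the other groups, which the lone libraries were assumed to share. On that assumption 1 gene was called in KO against WT stiff gel, Fcgr1 (log2 difference 2.11, adjusted p = 0.0202 from limma), and 0 in the test between genotypes of the stiffness response, where 5 had an unadjusted p under 0.05. The WT stiff against WT soft differences of Fcgr1 (-2.64, adjusted p = 0.00336) and Pilra (-2.65, adjusted p = 0.0245) passed under the same assumption. When only the 4 libraries of the 2 groups compared were modelled, 0 of the 9 genes were called for WT stiff against WT soft, with 7 at an unadjusted p under 0.05 and an adjusted p of 0.0525 for Fcgr1. For KO against WT stiff gel this gave 0 called and 6 at an unadjusted p under 0.05. All genes together also gave 0 calls in both of these smaller fits.

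Other receptors of the same design were counted from lists drawn up by gene name. Of 21 tested activating paired receptors, 9 fell and 1 rose with IL-4, beside 4.35% of all genes called, with a median log2 difference of -0.44 (all genes, -0.05). Sirpb1a, an activating relative of Sirpa, fell by 2.54 (SE 0.319, adjusted p = 0.000511 from limma), from 17.3 to 27.2 TPM in the soft libraries to 2.23 to 3.25 TPM. Tarm1, which signals through the common gamma chain, rose by 3.15 (SE 0.190, adjusted p = 6.56e-06), from 2.28 to 3.83 TPM to 28.6 to 43.8 TPM. Of 19 tested inhibitory paired receptors, 2 fell and 1 rose, with a median of -0.37. Clec12a, an ITIM lectin receptor, fell by 1.63 (SE 0.144, adjusted p = 6.68e-05), and Siglece, a sialic acid-binding receptor, fell by 1.91 (SE 0.263, adjusted p = 0.000869), although Siglece was no higher than 6.04 TPM in any library. In WT stiff gel, where 3.97% of all genes were called, 6 activating receptors fell and 1 rose, and 3 inhibitory receptors fell and 1, Pecam1, rose by 2.06 (adjusted p = 0.0164). Pecam1 was at 11.6 TPM in WT stiff 1, 3.27 in WT stiff 2 and 1.08 and 0.483 TPM in WT soft, and without WT stiff 1, a fit chosen after seeing the data, its difference was 1.28 (adjusted p = 0.0212). In KO stiff against KO soft gel 0 of either list were called by limma.

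**Figure D4:**
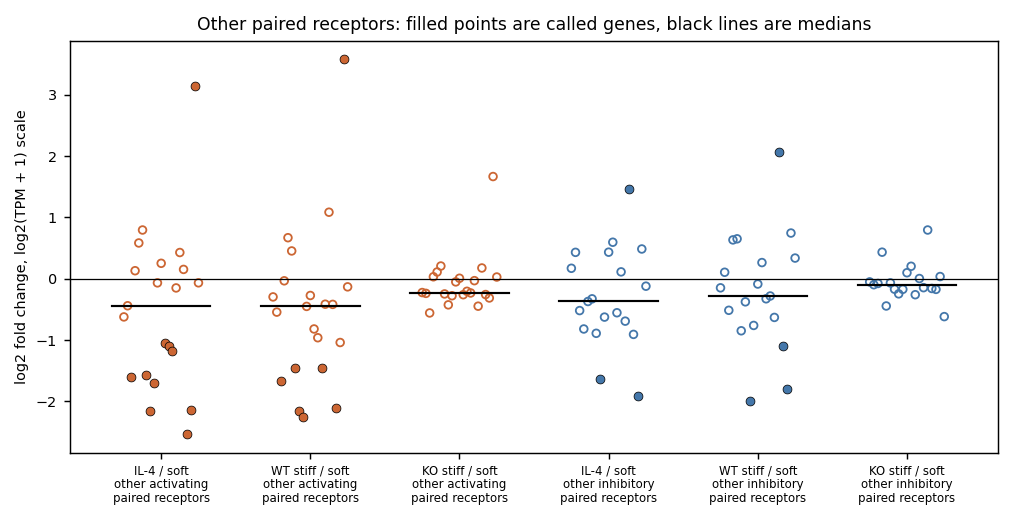
Log2 fold change (y axis, log2(TPM + 1) scale) of the other activating (21 genes) and inhibitory (19 genes) paired receptors for IL-4, WT stiff and KO stiff, each against soft gel (x axis), with filled points for called genes and black lines at the medians. The medians with IL-4 are -0.44 and -0.37, and in KO stiff no point is filled.

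Genes of downstream signalling were counted in the same way, beside 4.35% of all genes called with IL-4 and 3.97% in WT stiff gel. Of 35 tested genes of ITAM signalling, 2 rose and 3 fell with IL-4, among them the Src-family kinases Fyn, which rose by 1.25 (SE 0.110, adjusted p = 6.63e-05 from limma), and Fgr, which fell by 1.56 (SE 0.154, adjusted p = 0.000124). Of 15 genes of ITIM signalling, 1 rose and 3 fell, with Fyb, an adaptor bound by SKAP proteins, at -1.53 (SE 0.0690, adjusted p = 1.62e-06) and Dok3, an adaptor that recruits inhibitors of signalling, at -1.53 (SE 0.0718, adjusted p = 2.12e-06). In WT stiff gel 1 ITAM gene rose and 3 fell, and 1 ITIM gene rose and 4 fell. Among 4 tested Fc receptor relatives Fcrls rose by 1.60 (adjusted p = 0.00114) and Fcrl1 fell by 1.99 (adjusted p = 0.000389) with IL-4. Of 6 receptor ligands 0 were called with IL-4 over both genotypes, and Cd47, the SIRPα ligand, was at 87.3 to 164 TPM over the 12 libraries (log2 difference with IL-4 -0.24, adjusted p = 0.445). Some direct partners were looked at after their values were seen. Tyrobp, which encodes DAP12, differed by -0.27 with IL-4 (adjusted p = 0.219), and Syk by -0.33 (adjusted p = 0.00258). Ptpn6, which encodes SHP-1, differed by -0.86 (adjusted p = 0.00116), and Inpp5d, which encodes SHIP1, by -0.56 (adjusted p = 0.00103), all under the 2-fold limit.

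The genes whose log2(TPM + 1) values were most like each member over the 12 libraries were listed by Pearson's r. For Fcgr1 they were Engase (r = 0.993), Asph (0.993) and Plcg2 (0.992), and for Fcgr2b Sft2d2 (0.994), Mrc1 (0.994) and Ahr (0.993). Mrc1, which encodes the mannose receptor CD206, was at 52.7 to 88.9 TPM in the soft libraries, 180 to 218 with IL-4, 436 and 198 in WT stiff and 94.2 and 114 TPM in KO stiff. For Pilra the nearest were Rgs3, Fam84b and Fgd3 (0.990 to 0.993), for Sirpa Ctsd, Fos and Acp2 (0.994 to 0.995), and for Fcgr4 Lsr, Gba2 and Ndst1 (0.970 to 0.972). For Fcgr3 they were Rab31, Dab2 and Hpse (0.966 to 0.985), and for Fcer1g Gm21188, Srgap2 and Sod2 (0.980 to 0.983). For Pilrb1 they were Hmox2, Dennd1c and Rab32 (0.979 to 0.986), and for Pilrb2 Engase, Tecpr1 and Mpp1 (0.985 to 0.990). The libraries fall into 2 sets for most members, so these values describe that split and are no test.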

How the data were processed

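Polyadenylated, strand-specific libraries were made from 2 biological replicates per group. The deposited TPM were made by the authors from Salmon 1.4.0 estimates after trimming with Trim Galore 0.6.7 (per the submitters' processing notes, mm10). The study's methods name STAR and featureCounts for its own count-based comparisons, and such a test cannot be run on TPM. The TPM of each library sum to 1000000, so each value is relative to all others. For this report log2(TPM + 1) was kept for genes that reached 1 TPM in 2 or more of the 12 libraries (11194 of 14098) and fitted with limma 3.58.1 (R 4.3.3, trend), with 1 mean per group and all 12 libraries in 1 model. All 9 receptor genes passed the filter. Genes were called at a Benjamini-Hochberg adjusted p under 0.05 where the log2 fold change was also 1 or more in size. In a simulated WT soft+IL-4 against WT soft comparison with 11011 genes, 200 of 200 changed genes were recovered and 7 unchanged genes were called. The planted changes were all 2 log2 units or more in size and were placed only in genes above a set mean level. Noise was drawn independently with 1 spread per gene. The simulation therefore does not cover changes near the fold limit, weakly expressed genes or a library that stands apart.

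The members, lists and tests were chosen with earlier results of these data known. Named from each other list were at most 2 called genes with the largest change per comparison, and for each member the 3 genes of highest r. Same-numbered libraries deviated together (r over 0.1) in 3 of 15 group pairs (r from -0.05 to 0.31). These were the pairs among WT soft, KO soft and KO stiff (0.28 to 0.31), the groups in which Camkk2 was high in replicate 1 and low in replicate 2. The number was not used as a block in the reported fits, since not every pair passed. Alternatives were a pseudocount of 0.1, no filter, median-of-ratios scaling, fits on the compared groups alone, a replicate block, omission of each library or of the 3 with discordant Camkk2 (each leaves groups of 1 library, assumed to vary like the other groups), no fold limit, and ratios without Fcgr4 or Fcgr1.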

Additional observations from a re-analysis of the deposited data

Results flagged for a closer look

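In 3 genes the response to the stiff matrix differed between WT and KO cells by limma's test of that difference. The values were 2.12 for Fcgr1, 2.50 for Pilra and 1.86 for Pilrb2 on the log2(TPM + 1) scale, with KO cells keeping the higher level in stiff gel. Each omission of a library left a group of 1, assumed to vary like the other groups. On that assumption Fcgr1 passed in all 8 such fits (1.97 to 2.26), while Pilra lost the call without WT soft 1, WT soft 2, KO soft 1, KO stiff 1 or KO stiff 2 (2.29 to 2.54), and Pilrb2 without any 1 of these or without KO soft 2 (1.75 to 1.98). Without the 3 libraries whose Camkk2 level went against their label, which leaves 1 library in each of 3 groups, 0 of the 3 were called, with 5 of the 9 genes at an unadjusted p under 0.05.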

How the results depend on the processing

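Of 352 alternative values of the called receptor changes, 294 kept their direction and their side of the threshold, 58 kept the direction only and 0 reversed. Scaling and the replicate block ended no call of the main fit. Calls could also be added: with the fold limit kept, alternatives called up to 6 receptor genes for IL-4 over both genotypes. The same maximum of 6 held for IL-4 in KO cells, and the main fit called 5 in each. Fits that leave out libraries hold groups of 1, assumed to vary like the others. The pseudocount of 0.1 ended 3 calls, all of Pilrb1 (WT stiff against soft, KO stiff against KO soft+IL-4, and KO against WT stiff gel, adjusted p = 0.0987, 0.0536 and 0.186), and dropping the filter ended 1, Fcgr2b in KO against WT stiff gel (adjusted p = 0.0501 from limma). With no fold limit 8 receptor genes passed for IL-4 over both genotypes and 7 in WT cells. Without the 3 libraries of discordant Camkk2 the calls were 2 for IL-4 in WT, 3 for IL-4 in KO, 2 for WT stiff against soft, 1 for KO stiff against KO soft+IL-4, 1 for KO against WT stiff and 0 for the genotype by stiffness test, and over all genes 106, 181, 131, 16, 20 and 2 (main 421, 409, 444, 180, 222 and 75). Fits on the compared groups alone gave 0 calls for WT stiff against soft, KO against WT stiff and the genotype by stiffness test. Leaving out 1 library gave 4 to 6 calls for IL-4 over both genotypes, 4 to 5 for WT stiff against soft, 3 to 5 for KO stiff against KO soft+IL-4, 3 to 5 for KO against WT stiff and 1 to 5 for the genotype by stiffness test. The fewest came without KO soft+IL-4 1 (3), without either KO stiff library (3), and, for the genotype by stiffness test, without WT soft 1, WT soft 2, KO soft 1 or either KO stiff library (1 each). The Fc gamma receptor ratio differed by -1.63 to -1.35 in WT stiff and by -0.56 to -0.28 in KO stiff gel when 1 library was left out. Fits that leave out libraries also hold fewer of them, and the cause of these shifts was not tested.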
